A study of Homo sapiens with 4 samples.

Results

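The deoxynucleotide supply enzymes considered here are the products of 9 listed genes, *RRM1*, *RRM2*, *RRM2B*, *TYMS*, *DUT*, *TK1*, *DCK*, *CDA*, and *SAMHD1*, which build, salvage, or break down the precursors of DNA. They were taken by name from the filtered count table, and all 9 were found among its 18449 gene symbols. RNA was sequenced in bulk from BT-16 and CHLA-266, 2 established cell lines of the MYC subtype of atypical teratoid/rhabdoid tumor (AT/RT-MYC), an embryonal brain tumor that is defined by loss of SMARCB1. Each cell line gave 1 untreated library and 1 library treated with 1 µM doxorubicin, 5 µM etoposide, and 1 µM vincristine, which makes 2 libraries per condition and 4 in all. The methods describe the drugs as added singly in this order on 3 consecutive days, with the medium changed between them. All 4 cultures were kept in the same serum-containing medium and carried the same batch label. According to the methods, most treated cells died, resistant cells grew again after several weeks, and cells were harvested for sequencing. The treated libraries are thus taken to hold surviving cells and their progeny rather than cells under acute exposure. How many cells were dividing at harvest was not measured. Doxorubicin and etoposide act on topoisomerase II, and vincristine blocks microtubule assembly.

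Ribonucleotide reductase makes deoxynucleotides from ribonucleotides. Its large catalytic subunit, encoded by *RRM1*, works with either of a pair of small subunits. The subunit encoded by *RRM2* is made in S phase and removed when cells leave the cycle, whereas the one encoded by *RRM2B*, a target of p53, supplies cells outside S phase, including for DNA repair and for mitochondrial DNA. Thymidylate synthase (*TYMS*) makes dTMP from dUMP, the dUTPase encoded by *DUT* delivers dUMP and keeps uracil out of DNA, and the kinases encoded by *TK1* and *DCK* recover thymidine and other deoxynucleosides. Cytidine deaminase (*CDA*) turns cytidine and deoxycytidine into uridine and deoxyuridine, and *SAMHD1* encodes a hydrolase that degrades deoxynucleotides.

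Total counts ranged from 49849257 to 75087193 and were lower in the treated library of each cell line, and TMM factors ranged from 0.919 to 1.12. Levels are given as counts or as CPM (TMM-normalized counts scaled to a common library total), and changes as log2 fold changes of treated against untreated cells with a standard error (SE) from edgeR's quasi-likelihood test. An adjusted *p* value under 0.05 over all 18066 genes with a nonzero total counted as a change. The cell lines served as the replicates, so these *p* values measure only the spread between 2 cell lines per condition. Intervals reflect counting error alone, and true intervals are wider if a read pair added more than 1 count. *MKI67*, a marker of dividing cells, had a log2 fold change of -6.03 (SE 0.22, adjusted *p* = 1.92e-06 in edgeR). *SMARCB1* had 1394 and 1313 counts in untreated and 981 and 827 in treated BT-16 and CHLA-266 cells, so counts were assigned to it in every library, and a count over the whole gene does not show which exons were read. *MYC* had 14275 and 11515 counts before and 6804 and 7505 after treatment (log2 fold change -0.59, SE 0.17, adjusted *p* = 0.0289 in edgeR). Of 4 listed AT/RT-MYC markers, 3 were tested, with 1 lower (*MYC*), 0 higher, and 2 not called (median 0.01). Those not called were named after their values were seen. *HOXC10* went from 17 and 8 to 49 and 14 counts (1.56 on the log2 scale), and *HOXC9* from 330 and 176 to 298 and 133 (0.01). Genes of other cell types were also read more often after treatment. The summed level of 12 myeloid markers was 6.96 and 3.43 CPM in untreated and 17.1 and 11.9 CPM in treated BT-16 and CHLA-266 cells. That of 30 genes listed as restricted to other tissues was 6.49 and 9.50 CPM before and 31.7 and 24.2 CPM after treatment. In this list *ACTN2*, named after its values were seen, had the most counts before treatment (332 and 480). It had 391 and 351 counts after treatment and did not pass the threshold (log2 fold change 0.10, adjusted *p* = 0.832 in edgeR). The myeloid marker *CD68* was at 0 in both treated libraries.

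Of the 9 genes, 7 were downregulated after treatment (*RRM2*, *TK1*, *RRM1*, *DUT*, *TYMS*, *SAMHD1*, and *DCK*), 1 was upregulated from an undetected level (*CDA*), and *RRM2B* did not pass the threshold. Over all genes tested, 19.1% were called lower and 16.1% higher. The median log2 fold change was -2.51 over the 9 genes and 0.24 over all genes. An edgeR fit with the cell line as a block compares the libraries within each cell line. There, these 7 genes were again lower against 23.7% of all genes, and 0 were higher against 17.9% of all genes, because *CDA* no longer passed. With the block in DESeq2, *CDA* passed and *SAMHD1* did not. In bulk RNA, fewer cells in S phase and less RNA of these genes per cell cannot be told apart.

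**Figure D1:**
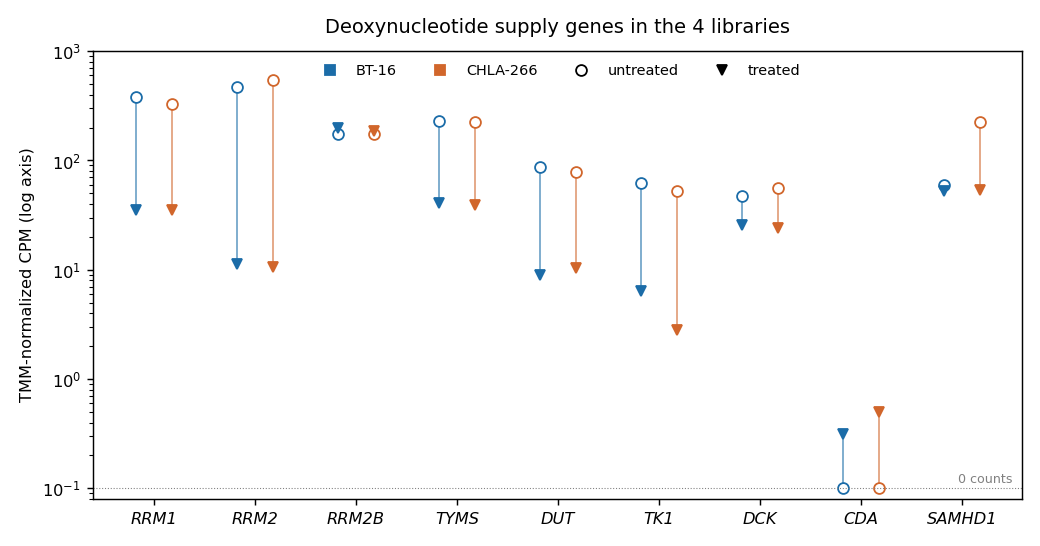
Level of each of the 9 genes in the 4 libraries, in TMM-normalized CPM on a log scale, with untreated and treated cells of each cell line marked. *RRM2* fell from 468 and 547 to 11.3 and 10.5 CPM in BT-16 and CHLA-266 cells, while *RRM2B* lay between 175 and 199 CPM in every library.

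The question addressed by the paired design for the reductase genes was how the levels of its subunits differed between untreated and treated cells. *RRM2* (ENSG00000171848, hg38 chr2:10120698-10211725, plus strand) was counted 32304 times in BT-16 before and 651 times after treatment, and in CHLA-266 33653 and 546 times. Both treated libraries thus lay far below both untreated libraries. After TMM normalization, the level was 41.6-fold lower in treated BT-16 cells (log2 ratio -5.38, 95% interval -5.49 to -5.27) and 52.0-fold lower in treated CHLA-266 cells (-5.70, -5.83 to -5.58). In edgeR the log2 fold change was -5.54 (SE 0.20, adjusted *p* = 1.92e-06), and 32 of the 3454 downregulated genes had a lower log2 fold change than *RRM2*. The annotation holds 3 pseudogene copies named after *RRM2*, and reads that fit both a copy and the gene could have been split or dropped.

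*RRM2B* (ENSG00000048392, hg38 chr8:102204502-102238961, minus strand) was counted 12048 times in BT-16 before and 11527 times after treatment, and in CHLA-266 10812 and 9669 times. Normalized, BT-16 cells had 175 CPM before and 199 after treatment and CHLA-266 cells 176 and 186, so all 4 libraries lay within a narrow range. The log2 ratio of treated to untreated cells was 0.19 (95% interval 0.15 to 0.23) in BT-16 and 0.08 (0.04 to 0.12) in CHLA-266 cells. The log2 fold change of 0.14 (SE 0.15) did not pass the threshold in edgeR (adjusted *p* = 0.495), which does not show that the level was equal. Because the median gene shifted with the normalization, the position of *RRM2B* against that median was also taken. It lay 0.10 below the median log2 fold change of all genes with TMM and, with upper-quartile normalization, where its own log2 fold change was 0.49 (adjusted *p* = 0.0366 in edgeR), the median of all genes was 0.59. When testing was restricted to genes of at least 10 counts per library, the median was 0.01, and *RRM2B* had a log2 fold change of 0.32 (adjusted *p* = 0.117 in edgeR).

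The ratio of both small subunit genes does not depend on the normalization, since both are read from 1 library. There were 2.68 *RRM2* counts per *RRM2B* count in untreated BT-16 and 3.11 in untreated CHLA-266 cells, against 0.0565 in each treated library. The order of the pair was therefore inverted in both cell lines, with 17.7 *RRM2B* counts per *RRM2* count after treatment. *RRM2* made up 72.8% of the summed counts of both genes in untreated BT-16 (95% Clopper-Pearson interval 72.4 to 73.2) and 75.7% in untreated CHLA-266 cells (75.3 to 76.1). After treatment its share was 5.35% in BT-16 (4.95 to 5.76) and 5.35% in CHLA-266 cells (4.92 to 5.80). The mean log2 ratio of *RRM2* to *RRM2B* was 1.53 ± 0.15 in untreated and -4.15 ± 0.00 in treated cells (SD, *n* = 2). The difference was -5.68, with -5.57 in BT-16 (47.4-fold) and -5.78 in CHLA-266 cells (55.1-fold). A two-sided exact permutation test gave *p* = 0.33, which is the smallest value that 2 against 2 libraries allow. Per kilobase of exon, over the union of annotated exons (9153 bases for *RRM2*, 5391 for *RRM2B*), the ratio was 1.58 and 1.83 in untreated and 0.0333 in both treated libraries, so *RRM2* was the higher of the pair before and *RRM2B* after treatment.

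**Figure D2:**
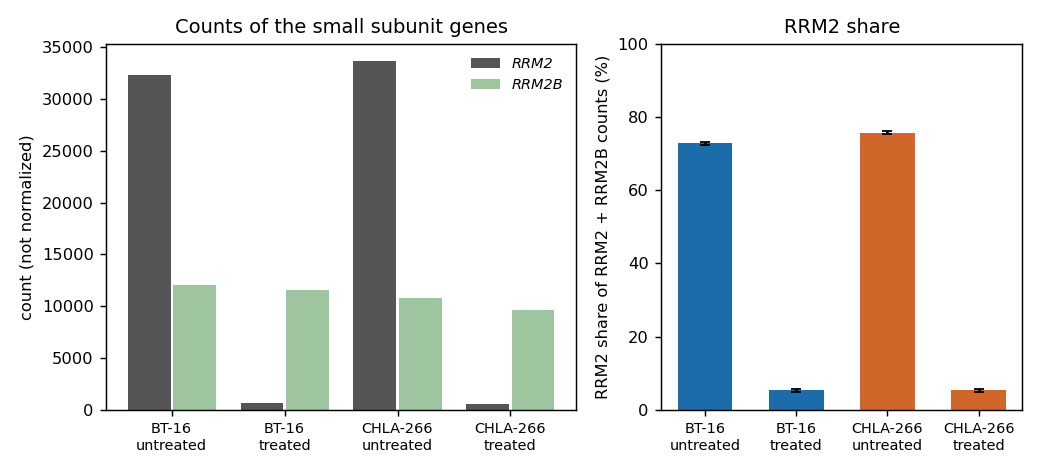
Left, counts of *RRM2* and *RRM2B* in each library without normalization. Right, share of *RRM2* in the summed counts of both genes in percent, with 95% Clopper-Pearson intervals as bars, which falls from 72.8% and 75.7% in untreated to 5.35% in both treated libraries.

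*RRM1* (ENSG00000167325, hg38 chr11:4094707-4138932, plus strand), the large subunit that both small subunits share, was counted 26292 times in BT-16 before and 2058 times after treatment, and in CHLA-266 20220 and 1838 times. The treated level was 10.7-fold lower in BT-16 and 9.28-fold lower in CHLA-266 cells. The log2 fold change was -3.32 (SE 0.18, adjusted *p* = 5.4e-06 in edgeR), which is a smaller decrease than that of *RRM2*. Per *RRM1* count there were 1.23 and 1.66 *RRM2* counts in untreated and 0.316 and 0.297 in treated BT-16 and CHLA-266 cells. For *RRM2B* the same ratio was 0.458 and 0.535 before and 5.60 and 5.26 after treatment. The 3 subunit genes thus moved apart from each other in the same order in both cell lines.

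*TYMS* (ENSG00000176890, hg38 chr18:657653-673578, plus strand) was counted 15818 times in BT-16 before and 2363 times after treatment, and in CHLA-266 13972 and 2030 times. Its level was 5.61-fold lower after treatment in BT-16 and 5.81-fold lower in CHLA-266 cells, and the counting intervals of both log2 ratios overlapped (-2.55 to -2.43 and -2.61 to -2.47). The log2 fold change was -2.51 (SE 0.16, adjusted *p* = 1.39e-05 in edgeR). *TYMS* shares 3261 bases with *ENOSF1*, which lies on the opposite strand, and the sources used here do not state whether reads were counted by strand. *ENOSF1* had 3522 and 3742 counts before and 1408 and 1326 after treatment (log2 fold change -1.17, SE 0.18, adjusted *p* = 0.00172 in edgeR), fewer than *TYMS* in each library. The annotation also holds 2 copies of *TYMS*.

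*DUT* (ENSG00000128951, hg38 chr15:48331011-48343373, plus strand), whose product feeds dUMP to thymidylate synthase, was counted 5984 times in BT-16 before and 519 times after treatment, and in CHLA-266 4837 and 539 times. Its level was 9.65-fold lower in BT-16 and 7.57-fold lower in CHLA-266 cells after treatment (log2 fold change -3.10, SE 0.18, adjusted *p* = 8.88e-06 in edgeR). There are 8 annotated copies of *DUT*, so its counts are uncertain where reads fit a copy as well. *TK1* (ENSG00000167900, hg38 chr17:78174091-78187233, minus strand), the thymidine kinase of S phase, was counted 4281 times in BT-16 before and 371 times after treatment, and in CHLA-266 3217 and 146 times. It was 9.66-fold lower in treated BT-16 and 18.5-fold lower in treated CHLA-266 cells, with log2 ratios of -3.27 (95% interval -3.43 to -3.12) and -4.21 (-4.47 to -3.98). The edgeR log2 fold change was -3.63 (SE 0.36, adjusted *p* = 0.000213). After *SAMHD1*, *TK1* had the greatest gap between the cell lines among the downregulated genes, with a log2 ratio lower by 0.94 in CHLA-266 cells, and this gap could not be tested with 1 library per cell line and condition.

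*DCK* (ENSG00000156136, hg38 chr4:70992538-71030914, plus strand), which phosphorylates deoxycytidine and the purine deoxynucleosides and activates nucleoside drugs, was counted 3278 times in BT-16 before and 1487 times after treatment, and in CHLA-266 3414 and 1241 times. Its level was 1.85-fold lower in BT-16 and 2.32-fold lower in CHLA-266 cells. The log2 fold change was -1.05 (SE 0.18, adjusted *p* = 0.00287 in edgeR), and 1580 of the 3454 downregulated genes had a lower one. *DCK* thus kept more of its untreated level than the other kinase, *TK1*.

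*SAMHD1* (ENSG00000101347, hg38 chr20:36890229-36951893, minus strand) was counted 4145 times in BT-16 before and 3016 times after treatment, and in CHLA-266 13855 and 2805 times. Untreated CHLA-266 cells stood apart with 225 CPM, whereas the other 3 libraries lay between 52.2 and 60.1 CPM. The treated level was 1.15-fold lower in BT-16 (log2 ratio -0.20, 95% interval -0.27 to -0.14) and 4.17-fold lower in CHLA-266 cells (-2.06, -2.12 to -2.00), a gap of -1.86 that could not be tested with 1 library each. The log2 fold change was -1.43 (SE 0.48, adjusted *p* = 0.0462 in edgeR). The call was also made with the cell line as a block (log2 fold change -1.13, adjusted *p* = 0.000277 in edgeR) but in none of the other 8 alternatives, in which adjusted *p* ranged from 0.0524 to 0.312. Without the untreated CHLA-266 library the log2 fold change was -0.18. It was -2.08 without untreated BT-16, -1.41 without treated BT-16, and -1.45 without treated CHLA-266. In BT-16 alone the log2 ratio turned to 0.19 with upper-quartile normalization and to 0.09 with library totals. *SAMHD1* is also abundant in myeloid cells. The 12 myeloid markers summed to 3.43 CPM in untreated CHLA-266 cells, with 5 of 12 at 0, and to between 6.96 and 17.1 CPM in the other 3 libraries, with 1 to 5 of 12 at 0. Single markers differed in order, as *PTPRC* had 287 and 30 counts and *CSF1R* 151 and 166 counts in untreated BT-16 and CHLA-266 cells. After treatment *PTPRC* had 167 and 64 counts and *CSF1R* 261 and 98. The part of myeloid RNA in the *SAMHD1* level was not tested.

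*CDA* (ENSG00000158825, hg38 chr1:20589086-20618903, plus strand) had 0 counts in both untreated libraries, which allows up to 3 counts per library, and 18 and 26 counts in treated BT-16 and CHLA-266 cells. Its treated level was 0.311 and 0.5 CPM. Against a floor of 3 counts per untreated library it was 8.8-fold higher after treatment, with 7.16-fold in BT-16 and 10.3-fold in CHLA-266 cells. The floor covers the untreated libraries only, and the counting error of the few treated counts is not included in these values. In edgeR its adjusted *p* value was 0.0432, and 0.0856 in the blocked edgeR fit, whereas DESeq2 with the block gave 0.0294. When 1 library was left out at a time, it ranged from 0.0471 to 0.181, and the call held only without the treated BT-16 library. Genes whose use is mostly restricted to other tissues were also read in the treated libraries, and their counts per kilobase of exon were set beside that of *CDA*. *CDA* itself reached 22 (BT-16) and 31.7 (CHLA-266) after treatment. The 30 tissue-restricted genes had a median of 11.7 and 5.66 there and reached 88.5 (*TNP1*) and 31.1 (*GCG*), with 7 of 30 at or above *CDA* in BT-16 and 0 of 30 in CHLA-266 cells. Of these genes, 11 of 26 tested were called higher and 0 lower, against 16.1% and 19.1% of all genes, among them *SFTPC* with 0 and 0 counts before and 68 and 69 counts after treatment, and *TF*, which brain also expresses, with 20 and 4 before and 176 and 143 after. The 12 myeloid markers had medians of 13.9 and 13.0 counts per kilobase in the treated libraries, and 3 of 12 were at or above *CDA* in each. In this list 4 of 12 were called higher and 0 lower, against the same 16.1% and 19.1%. They were *S100A9* (0 and 0 counts before, 250 and 68 after), *ITGAM* (4 and 4 before, 111 and 196 after), *AIF1*, and *MPO*, of which the last 2 were picked after their values were seen. In the untreated libraries, 12 and 18 of the 30 tissue-restricted genes and 5 and 5 of the 12 myeloid markers were at 0. The part of such reads in the *CDA* counts was not tested.

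**Figure D3:**
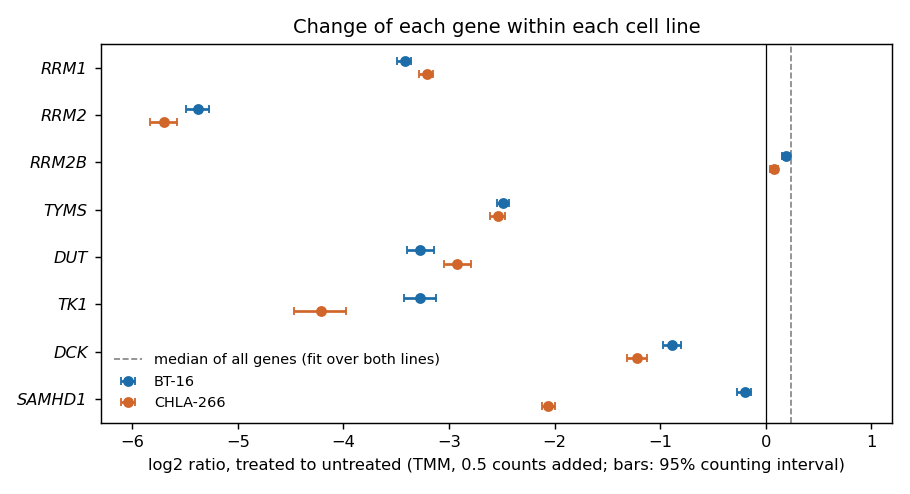
Log2 ratio of treated to untreated cells within BT-16 and CHLA-266 for the 8 genes detected in all libraries, with 95% counting intervals as bars and the median of all genes (0.24) as a dashed line. *RRM2* lies lowest at -5.38 and -5.70, *RRM2B* lies at 0.19 and 0.08, and the cell lines are farthest apart for *SAMHD1* (-0.20 and -2.06).

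The promoters of these genes were searched for motifs, because several of the genes moved together. Windows of 250 bases before the transcription start came from RefSeq (GRCh38.p14) for 8 of the 9 genes, all but *RRM2B*. Each window was searched on both strands for E2F-type motifs (TTTCCCGC, TTTCGCGC, TTTGCCGC, or TTTGGCGC), for the CCAAT box (CCAAT), and for CHR-type motifs (TTTGAA or TTTAAA), which are known from promoters of cell cycle genes. No spelling contains another. The windows of *RRM1*, *RRM2*, *TYMS*, and *TK1* are shown because these genes were called lower in all 9 alternatives and their windows hold matches, and a downstream start of *DUT* is shown as the start of this gene with matches, chosen after its sequence was seen. Matches are in capitals, and a match on the minus strand appears as its reverse complement.
*RRM2*, chr2:10122489-10122738, plus strand: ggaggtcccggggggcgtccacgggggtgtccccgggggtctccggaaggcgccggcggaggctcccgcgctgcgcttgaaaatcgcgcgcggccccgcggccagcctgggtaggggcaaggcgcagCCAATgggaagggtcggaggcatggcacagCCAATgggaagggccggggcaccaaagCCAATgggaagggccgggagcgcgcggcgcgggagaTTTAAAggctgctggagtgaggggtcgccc
*RRM1*, chr11:4094435-4094684, plus strand: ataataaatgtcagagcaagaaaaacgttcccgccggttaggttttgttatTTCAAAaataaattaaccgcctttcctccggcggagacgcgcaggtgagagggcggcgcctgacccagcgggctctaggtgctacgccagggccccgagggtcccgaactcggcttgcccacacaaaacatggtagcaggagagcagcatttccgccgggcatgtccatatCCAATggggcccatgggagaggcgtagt
*TK1*, chr17:78187053-78187302, minus strand: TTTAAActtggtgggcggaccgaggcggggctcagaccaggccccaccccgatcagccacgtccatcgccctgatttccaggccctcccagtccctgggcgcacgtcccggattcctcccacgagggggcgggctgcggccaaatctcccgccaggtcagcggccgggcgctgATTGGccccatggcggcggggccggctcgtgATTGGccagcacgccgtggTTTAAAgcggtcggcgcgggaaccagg
*TYMS*, chr18:657403-657652, plus strand: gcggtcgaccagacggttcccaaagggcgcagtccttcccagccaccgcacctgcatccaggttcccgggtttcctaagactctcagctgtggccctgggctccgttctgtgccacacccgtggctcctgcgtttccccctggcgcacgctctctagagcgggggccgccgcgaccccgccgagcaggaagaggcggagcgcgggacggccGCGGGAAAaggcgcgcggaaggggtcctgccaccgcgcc
*DUT*, downstream start, chr15:48331947-48332196, plus strand: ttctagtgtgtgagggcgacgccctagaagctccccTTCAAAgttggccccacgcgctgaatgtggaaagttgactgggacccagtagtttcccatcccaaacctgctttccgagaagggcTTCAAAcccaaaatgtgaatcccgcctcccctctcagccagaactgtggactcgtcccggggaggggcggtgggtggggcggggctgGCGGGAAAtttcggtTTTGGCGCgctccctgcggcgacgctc

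In the *RRM2* window the CCAAT box occurred 3 times, beginning 123, 93, and 66 bases before the start, followed by TTTAAA 30 bases before it. The *TK1* window held 2 CCAAT boxes on the minus strand, at 77 and 46 bases, and TTTAAA at 250 and 27 bases before the start. *RRM1* had 1 CCAAT box at 28 bases and 1 CHR-type match at 199 bases, and *TYMS* had TTTCCCGC on the minus strand at 39 bases. *SAMHD1* held 2 CCAAT boxes at 49 and 38 bases. None of these motifs was found in the windows of *DCK*, *CDA*, and the canonical start of *DUT*. The downstream start of *DUT* had E2F-type matches at 42 and 27 bases and CHR-type matches at 214 and 129 bases. The CCAAT box was thus present in 4 of 8 windows against 32.0% of 35116 windows of all genes, the CHR-type motif in 3 of 8 against 21.9%, and the E2F-type motif in 1 of 8 against 2.79%. The 8 windows are 1 per gene, at the start nearest the canonical one. The 35116 windows also include other starts of the same genes, so the shares are not strictly alike. These are matches of letters, binding was not measured, and a window without a match shows only that these letters are not in it.

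Levels of different genes were compared per kilobase of the union of exons, and the order below holds for that length. In untreated cells *TYMS* was highest (94.7 CPM per kilobase in BT-16 cells, 93.8 in CHLA-266 cells), followed by *RRM1* (90.0 and 77.6) and *RRM2* (51.2 and 59.7). *TK1* (33.6 and 28.3) and *RRM2B* (32.4 and 32.6) overlapped between the cell lines and cannot be ranked. *DUT* (23.6 and 21.4) and *DCK* (15.3 and 17.9) came below them, and *SAMHD1* lay at 5.55 in BT-16 and 20.8 in CHLA-266 cells. After treatment *RRM2B* was highest with 37.0 and 34.5 CPM per kilobase. *TYMS* (16.9 and 16.1), *RRM1* (8.41 and 8.36), *DCK* (8.29 and 7.70), and *SAMHD1* (4.82 and 4.98) followed in both cell lines, and *RRM2* was the lowest gene above *CDA* with 1.23 and 1.15. *TK1* (3.48 and 1.52) and *DUT* (2.44 and 2.82) overlapped. Per kilobase of the longest annotated transcript, *RRM2* stood at 127 and 149 in untreated cells, above *RRM1* (120 and 104) and, in CHLA-266 cells, above *TYMS* (141), and *DUT* (40.5) lay above *TK1* (36.9) and *RRM2B* (36.6) in BT-16, as did *SAMHD1* (41.0) above *RRM2B* (36.8) in CHLA-266 cells. The order among *TYMS*, *RRM1*, and *RRM2* and that among *TK1*, *RRM2B*, *DUT*, and *SAMHD1* before treatment thus depend on the length used. *RRM2B* remained the highest after treatment with 41.8 and 39.0, while in CHLA-266 cells *SAMHD1* (9.83) lay above *DCK* (8.90) and *RRM2* (2.86) above *TK1* (1.67), and in BT-16 cells *DUT* (4.19) lay above *TK1* (3.82).

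Between the cell lines, with treatment in the model, *SAMHD1* was the 1 gene of the 9 called higher in CHLA-266 cells, against 0.836% of all genes, and 0 were called lower, against 1.46% of all genes. Its log2 difference was 0.98 (SE 0.24, adjusted *p* = 0.0182 in edgeR), the levels differed in untreated cells (60.1 and 225 CPM in BT-16 and CHLA-266) and were close in treated cells (52.2 and 54.0 CPM), and the call was made in 3 of 7 alternatives, over which adjusted *p* ranged from 1.92e-08 to 0.874. *TK1* had a log2 difference of -0.68 (adjusted *p* = 0.0884 in edgeR), and the call was made in 3 of 7 alternatives (adjusted *p* from 0.0119 to 0.274). The other 7 genes were called in none of their alternatives.

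The genes whose pattern over the 4 libraries was nearest to that of *RRM2* or *RRM2B* were taken by the Euclidean distance of centred log2 CPM, over the 12620 genes that reached 10 counts in each library. Nearest to *RRM2* were *TTK* (distance 0.170), *KNL1* (0.243), and *ASPM* (0.249), which act at the kinetochore and the mitotic spindle. *TTK* had 5082 and 5344 counts before and 107 and 76 after treatment in BT-16 and CHLA-266 cells. Among the 9 listed genes alone, *TK1* was nearest to *RRM2* at a distance of 1.99. Nearest to *RRM2B* were *GPBP1L1* (0.0211), *RIDA* (0.0390), and *KANSL1* (0.0412), with log2 fold changes from 0.11 to 0.13, and *DCK* was the nearest of the 9 genes at 1.2.

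Further genes of nucleotide metabolism were described in 4 lists of 61 genes, of which 36 were downregulated, 4 upregulated, and 21 not called, against 19.1% lower and 16.1% higher over all genes (39 lower and 3 higher in the blocked fit), with a median log2 fold change of -0.83. Among 21 other genes of deoxynucleotide synthesis and salvage, 10 were lower, 2 higher, and 9 not called (median -0.61). *DTYMK*, the kinase that follows thymidylate synthase, had 7159 and 5309 counts before and 532 and 429 after treatment in BT-16 and CHLA-266 cells (-3.44 on the log2 scale, edgeR adjusted *p* = 6.4e-06). *TXNRD1*, thioredoxin reductase, rose from 25503 and 34348 to 48127 and 59841 counts (1.10, adjusted *p* = 0.00988 in edgeR), and the glutaredoxin gene *GLRX*, named after its values were seen, had 4 and 6 counts before and 71 and 25 after treatment (adjusted *p* = 0.0474 in edgeR, 0.104 with the block). Thioredoxin and glutaredoxin are the electron donors of ribonucleotide reductase. The thioredoxin gene *TXN* itself, named after its values were seen, did not pass the threshold (log2 fold change -0.17, adjusted *p* = 0.543 in edgeR). The rise of *GLRX* began at few counts, as did that of genes of other tissues in the treated libraries, and a shared origin was not tested. The mitochondrial kinases *TK2* and *DGUOK*, also named after their values were seen, had log2 fold changes of -0.50 and -0.40 and did not pass the threshold (adjusted *p* = 0.112 and 0.231 in edgeR).

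Of 15 genes that clean the deoxynucleotide pool or break down nucleosides, 8 were lower, 2 higher, and 5 not called (median -0.78). For this list and those named next, the shares over all genes were again 19.1% lower and 16.1% higher. The 2 higher genes of this list are near that share. *NUDT1*, which removes oxidized purine nucleotides, fell from 1441 and 1454 to 196 and 209 counts (-2.59 on the log2 scale, edgeR adjusted *p* = 0.000215), and *NT5M*, a mitochondrial deoxynucleotidase, from 283 and 293 to 14 and 44 (-3.03, adjusted *p* = 0.0089 in edgeR). Higher were the uridine phosphorylase *UPP1* (0.93, adjusted *p* = 0.0125 in edgeR) and the ecto-nucleotidase *NT5E* (1.57, adjusted *p* = 0.0404 in edgeR), the latter from 92 and 70 to 160 and 238 counts. In the de novo synthesis of ribonucleotides, 13 of 15 genes were lower, 0 higher, and 2 not called (median -0.96), led by the purine enzymes *GMPS* (12229 and 10322 to 2205 and 1939 counts, log2 fold change -2.19) and *PFAS* (-1.81). Of 10 nucleoside transporters and ribonucleoside kinases, 5 were lower, 0 higher, and 5 not called (median -0.69). The lower genes were the equilibrative transporters *SLC29A1* (log2 fold change -1.81) and *SLC29A2* (-1.76) and, named after their values were seen, the kinases *UCK1* and *UCK2* and the salvage enzyme *APRT*.

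All 21 S-phase genes in the table were downregulated, with a median log2 fold change of -3.21. Their summed level was 3410 and 3490 CPM in untreated and 469 and 447 CPM in treated BT-16 and CHLA-266 cells. The lowest log2 fold change of the list was that of *CCNA2* (-5.20, SE 0.33, from 10499 and 10025 to 162 and 301 counts), which differed from that of *RRM2* (-5.54, SE 0.20) by about their standard errors. *E2F8* followed at -4.20, and *RRM1*, *TK1*, *DUT*, and *TYMS* lay within the range of this list. Of 23 p53 targets, the class to which *RRM2B* belongs, 4 were higher, 6 lower, and 13 not called (median -0.01), with 16.1% higher and 19.1% lower over all genes, so these shares are near the background. The higher ones were *PLK2* (56 and 18 to 1302 and 642 counts, log2 fold change 4.97) and *CDKN1A*, an inhibitor of the cell cycle (8181 and 6485 to 25541 and 19760 counts, 1.88), together with *MDM2* and *GDF15* (1.12 and 1.87), which were named after their values were seen. The lower ones included *DDB2* (-1.19) and *RPS27L* (-0.89).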

How the data were processed

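RNA of BT-16 and CHLA-266 cells was sequenced untreated and treated (4 libraries from 10 ng RNA each, SMART-Seq Stranded kit, paired ends). Per the labels and methods, the authors used bcl2fastq 2.20, Skewer, STAR, and hg38, counted reads per gene, and removed genes on sex chromosomes and genes counted repeatedly. Their deposited estimated counts carry no normalization, and 5 fractional values were rounded. The authors also deposited log2 values for 17553 genes from the variance-stabilizing transformation (VST) in DESeq2. Whether both reads of a pair, or strands, were counted separately is not given in the sources used here.

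After removal of 383 symbols with no count from 18449, 18066 genes were tested with edgeR 4.0.16 in R 4.3.3 (quasi-likelihood test, TMM, Benjamini-Hochberg adjustment, treatment alone in the model). SE is the log2 fold change divided by the root of the F statistic. The cell line pairs the libraries, and the residuals of its 2 libraries around the condition means correlated at 0.263 (12620 genes, not independent of each other). A fit with the cell line as a block gave the alternative and the comparison of the cell lines. Ratios within a cell line had 0.5 counts added and exact Clopper-Pearson 95% intervals, and log2 CPM had a prior count of 2. Other alternatives were DESeq2 1.42.0, other normalizations and filters, limma 3.58.1 on the VST values, and each library left out. Scripts were tested on simulated data.

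The 9 genes and all lists were chosen with earlier results of these data known, the lists from general knowledge. Besides the 9 genes, *MKI67*, *SMARCB1*, and *ENOSF1*, the text names per list the 2 called genes of largest log2 fold change in each direction with at least 10 counts in every library or 50 in both libraries of the higher condition, and the 3 nearest genes to *RRM2* and *RRM2B*. A gene that this rule would name is not reported here. Positions and exon lengths are from GENCODE 44 (hg38).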

Additional observations from a re-analysis of the deposited data

How the results depend on the processing

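Of 116 alternative values for the change of the 9 genes after treatment, 102 kept their direction and side of the threshold and 0 reversed. *RRM1*, *RRM2*, *TYMS*, *TK1*, *DUT*, and *DCK* were called lower in all 9 alternatives, and the number called lower was 6 or 7 throughout. With the cell line as a block 0 genes were called higher (*CDA* lost), and the block changed no other call among the 9 genes. Under the filter of 10 counts per library 0 were called higher, since *CDA* could not be tested, with upper-quartile normalization 2 (*CDA* and *RRM2B*), and with 1 library left out 0 to 1. Of the 61 genes of the other nucleotide lists, 0 to 3 were called higher with 1 library left out against 4 in all libraries, namely 0 without untreated BT-16, 3 without treated BT-16, and 2 without untreated or without treated CHLA-266. Between the cell lines, 0 genes were called higher with DESeq2, with either filter, or with limma, and 1 (*TK1*) was called lower with DESeq2 size factors, upper-quartile normalization, or library totals. The log2 difference of *DUT* between the cell lines turned to -0.02 with library totals, and the log2 ratio of *SAMHD1* in BT-16 to 0.19 (upper-quartile) and 0.09 (library totals). Per kilobase of the longest transcript, the ratio of *RRM2* to *RRM2B* was 3.49 and 4.05 in untreated and 0.0734 in both treated libraries. The median log2 fold change of all genes moved from 0.24 (TMM) to 0.31 (DESeq2 size factors), 0.46 (library totals), 0.59 (upper-quartile), and 0.01 (at least 10 counts). Except where shown, the cause was not tested. With 1 library per cell line and condition, leaving out libraries was not possible for the cell line comparison, and differences in response between the cell lines could not be tested. At this depth *CDA* was at the limit of detection.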
